A study of Rattus norvegicus with 2 samples.

Results

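Cyclins, cyclin-dependent kinases (CDKs), CDK inhibitors, E2F transcription factors and the retinoblastoma (pocket) proteins form the core engine of the cell cycle. The members described here are 41 gene symbols of that engine, chosen by name, of which 40 had an entry among the 17202 genes of the deposited expression table; Cdkn2d was not analysed here. RNA came from 2 cultures of primary oligodendrocyte precursor cells (OPCs) from wild-type rat brain, and was profiled by bulk RNA sequencing. For 2 days, one culture was kept with amyloid-beta (Aβ), the peptide of Alzheimer plaques, at 1 µM, and the other culture was given DMSO, the solvent. There was 1 library per condition, and age is given as developing animals in one label and as adult OPCs in another, while both titles carry P1, which is not explained. Duration of exposure to DMSO rests on protocol text that mentions Aβ alone.

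A cell that receives mitogens makes D cyclins, which activate Cdk4 and Cdk6. These kinases phosphorylate the pocket proteins, which then release E2F factors, and E2F factors switch on E cyclins, A cyclins and the replication genes. Cdk2 and Cdk1 drive DNA replication and mitosis, and inhibitors of the Cip/Kip and Ink4 families hold the kinases back. OPCs divide in response to platelet-derived growth factor and leave the cycle as they differentiate, a step in which the Cip/Kip inhibitor p27 (Cdkn1b) is known to take part in rodents.

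Estimated counts summed to 15117102 in the Aβ culture and to 15019416 in the DMSO culture. A gene was measured if it reached 1 CPM (counts scaled to library size) in a library, as 13510 genes did. OPC markers summed to 2183 TPM (transcript level per length, scaled to library size) with Aβ and 2106 TPM with DMSO. Astrocyte markers were also abundant, at 1046 and 1001 TPM in the Aβ and DMSO cultures, while those of microglia (9.18 and 11.2 TPM), endothelium (0.21 and 0.30 TPM) and fibroblasts (2.43 and 2.70 TPM) were sparse. In the same order, neuronal markers summed to 88.3 and 88.1 TPM and those of oligodendrocytes to 59.8 and 57.4 TPM. The part of these other cells in the values below was not tested. In bulk RNA, fewer dividing cells and less RNA per cell cannot be told apart.

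The promoters of a B cyclin and its kinase are printed first, because both hold matches to cell cycle motifs that were searched for, and both genes are textbook examples of genes with cell cycle promoter elements. RefSeq promoters of build GRCr8, from 250 bases before to 50 after the start site, were matched for 28 of the 40 members. They were searched on both strands for an E2F motif (TTTGGCGC, TTTCCCGC, TTTGCCGC or TTTCGCGC), for the cell cycle homology region, or CHR (TTTGAA or TTCGAA), and for the CCAAT box (CCAAT). The CHR is known as a binding element of the MuvB complex, which represses mitotic genes in resting cells and activates them later in the cycle. Capitals mark E2F and CHR matches in the promoters of Ccnb2 (chr8:79981609-79981908, minus strand) and Cdk1 (chr20:19265043-19265342, plus strand).
Ccnb2: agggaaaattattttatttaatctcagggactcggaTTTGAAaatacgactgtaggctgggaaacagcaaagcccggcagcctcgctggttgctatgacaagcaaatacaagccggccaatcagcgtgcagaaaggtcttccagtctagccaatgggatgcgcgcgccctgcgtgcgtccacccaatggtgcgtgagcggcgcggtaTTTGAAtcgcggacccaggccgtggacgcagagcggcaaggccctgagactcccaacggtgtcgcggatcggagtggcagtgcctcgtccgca
Cdk1: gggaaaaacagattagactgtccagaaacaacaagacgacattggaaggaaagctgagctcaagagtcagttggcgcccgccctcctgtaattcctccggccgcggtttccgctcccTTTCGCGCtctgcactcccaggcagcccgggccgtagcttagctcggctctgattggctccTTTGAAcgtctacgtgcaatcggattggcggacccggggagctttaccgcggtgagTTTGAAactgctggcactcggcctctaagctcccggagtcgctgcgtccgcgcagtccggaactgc
Ccnb2 held 2 CHR matches, beginning at -214 and -43 from the start site, and 3 CCAAT boxes between them, at -134, -101 and -68. Cdk1 held an E2F match at -133 and CHR matches at -72 and -16, with CCAAT boxes read on the opposite strand at -210, -81 and -49.

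An E2F match was found in 4 of the 28 member promoters (14.3%), against 2.14% of the 33469 promoters in the table and 4.13% of the 10618 that belong to measured genes. Those of E2f3, Rb1 and Rbl1 are shown as 30 bases with the match in capitals (E2f3, chr17:34810327-34810356, plus strand; Rb1, chr15:54911837-54911866, minus strand; Rbl1, chr3:166289376-166289405, minus strand), since these genes encode an E2F factor and the proteins that bind E2F factors.
E2f3: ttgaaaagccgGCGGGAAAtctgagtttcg
Rb1: ggaagtgacgtTTTCCCGCggttggcccgg
Rbl1: aagtaggcgatTTTCGCGCgctttgtcgcg
A CHR match lay in 9 of 28 (32.1%), against 19.7% of all promoters and 13.2% of those of measured genes. A CCAAT box lay in 12 of 28 (42.9%), against 37.5% of all promoters and 37.8% of those of measured genes. The RefSeq promoters of Ccnb1 and Ccne1 held neither an E2F nor a CHR match in this window.

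No member of the module differed by 2-fold between the cultures. Of 40 listed members, 39 were measured, with between 67 and 5387 counts, and 27 of them (69.2%) lay within 1.1-fold of a ratio of 1, against 70.5% of all measured genes. The widest difference was 1.22-fold. By the 2-fold rule, which asks for a log2 ratio of at least 1 in size and a 95% counting interval that leaves out 1, 0 members differed, against 0.696% of measured genes. In 27 of 39 members (69.2%) the CPM ratio of Aβ over DMSO was below 1, against 50.3% of measured genes, and in 12 it was above 1, against 49.7%. On the TPM scale the split was 19 below and 20 above, where 63.2% of all measured genes lay above 1. The median log2 CPM ratio of the members was -0.034, beside -0.00071 for all measured genes, and the median log2 TPM ratio was 0.00027, beside 0.037 for all measured genes.

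**Figure D1:**
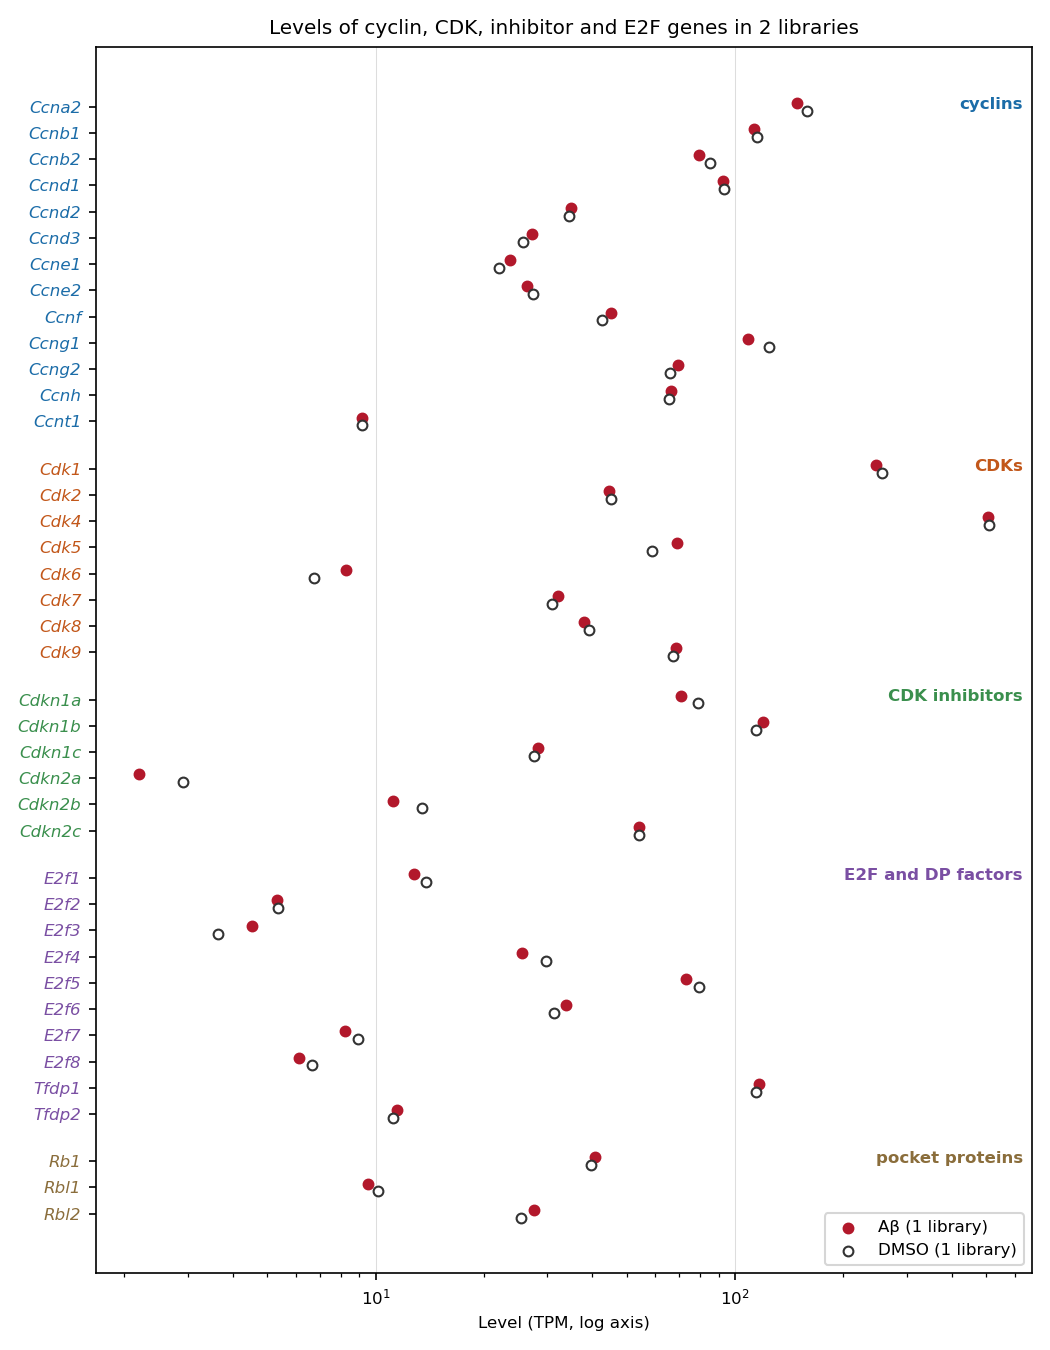
Levels of the 40 listed members in TPM on a log axis, with the Aβ library (filled) drawn above the DMSO library (open) in each row and gene names coloured by role. Cdk4 is highest at 504 and 510 TPM and Cdkn2a lowest at 2.19 and 2.91 TPM, and the paired points of a gene lie far closer together than the genes lie to each other.

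There were no replicates, so no test was run, and the intervals cover counting error alone. Across measured genes with whole counts, squared differences between the libraries were 1.52 times what counting gives, so a counting interval that leaves out 1 is not rare. It lay wholly below 1 for 9 of 39 members (23.1%), against 6.90% of measured genes, and wholly above 1 for 2 members (5.13%), against 6.48%. Among genes with at least 739 counts in both libraries, the median depth of the members, it lay below 1 for 7 of 20 members (35.0%) and for 9.43% of 5008 measured genes. Asking in addition for a ratio beyond 1.1-fold left 6 members lower, against 4.54% of measured genes, and 2 members higher, against 4.43%. The 6 lower members were Ccnb2, Ccng1, Cdkn1a, Cdkn2b, E2f4 and E2f5, and the 2 higher members were Cdk5 and Cdk6. With intervals widened for the spread of 1.52, a setting chosen after the data were seen, 5 members stayed below 1 (Ccna2, Ccng1, Cdkn1a, E2f4 and E2f5) and 1 above (Cdk6).

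**Figure D2:**
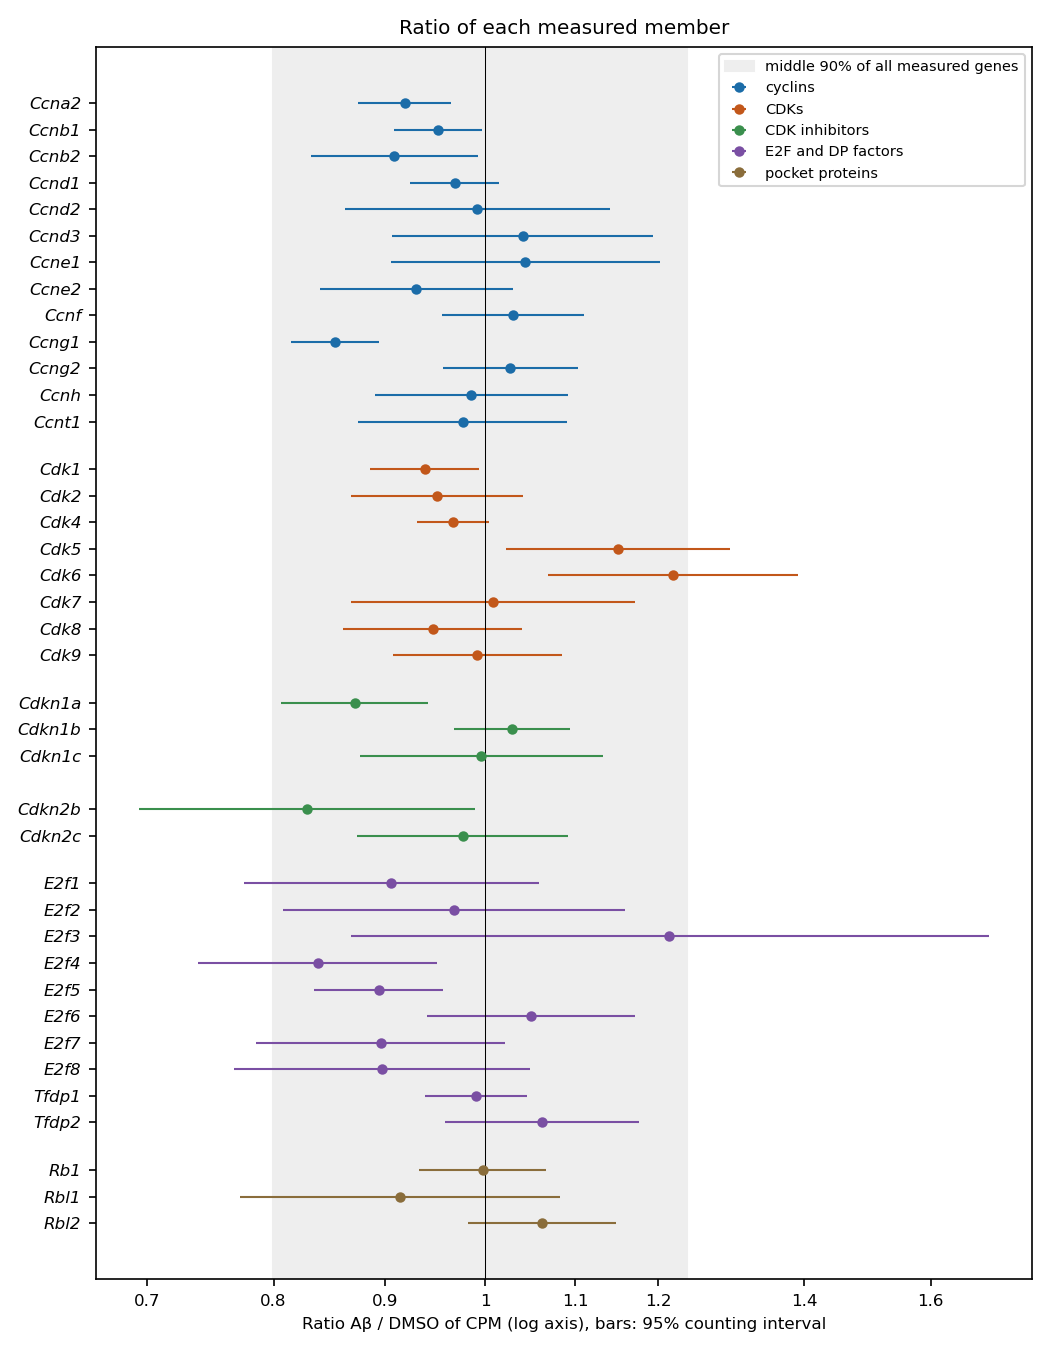
Ratio of CPM, Aβ over DMSO, for the 39 measured members on a log axis, by role, with 95% counting intervals as bars and the middle 90% of all measured genes (0.800 to 1.24) shaded. The points run between Cdkn2b at 0.829 and Cdk6 at 1.22, and all of them lie inside the shaded band.

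D cyclins, the sensors of mitogens, all had intervals that held 1. Ccnd1, the most abundant of them, had 3449 counts and 92.6 TPM with Aβ, against 3533 counts and 92.9 TPM with DMSO (CPM ratio 0.968, interval 0.924 to 1.02). Ccnd2 had 406 counts in each library, at 35.0 TPM with Aβ and 34.4 TPM with DMSO (0.992, 0.862 to 1.14). Ccnd3 had 430 counts with Aβ and 410 with DMSO, at 27.3 and 25.7 TPM (1.04, 0.907 to 1.19). Ccnd1 made up 59.8% of the summed TPM of D cyclins with Aβ and 60.7% with DMSO, so the makeup of the family was nearly the same. Summed over the D cyclins, counts came to 4285 with Aβ, against 4349 with DMSO, a ratio of 0.977 (0.937 to 1.02).

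E cyclins, which partner Cdk2 at the entry into S phase, pointed in opposite directions, and neither interval left out 1. Ccne1 had 407 counts with Aβ and 387 with DMSO, at 23.7 and 22.1 TPM (ratio 1.04, 0.905 to 1.20). Ccne2 had 739 counts with Aβ and 788 with DMSO, at 26.3 and 27.3 TPM (0.930, 0.840 to 1.03). The order of the pair by TPM, Ccne2 above Ccne1, was the same in both libraries.

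Of 4 cyclins of S phase and mitosis, 3 had a ratio slightly below 1 (75%, against 50.3% of measured genes). Ccna2, the cyclin of DNA replication and entry into mitosis, had 3113 counts and 149 TPM with Aβ, against 3360 counts and 159 TPM with DMSO (ratio 0.919, 0.875 to 0.965). Ccnb2, a B cyclin that activates Cdk1 in mitosis, had 972 counts with Aβ and 1061 with DMSO, at 79.4 and 85.3 TPM (0.909, 0.832 to 0.992). Its partner in the family, Ccnb1, had 3529 counts with Aβ and 3677 with DMSO, at 113 and 115 TPM (0.952, 0.909 to 0.997). The counts of Ccna2 and Ccnb2 were fractional as deposited, and the other 38 listed members had whole counts. Ccnf, an F-box protein that marks cell cycle proteins for destruction, stood on the other side, with 1430 counts with Aβ and 1377 with DMSO (1.03, 0.956 to 1.11). The median log2 ratio of these 4 cyclins was -0.096 and stood at -0.014 without the pair with fractional counts, which leaves Ccnb1 and Ccnf. On the TPM scale the intervals of Ccnb1 (0.978, 0.934 to 1.02) and Ccnb2 (0.931, 0.852 to 1.02) held 1, and that of Ccna2 (0.938, 0.893 to 0.985) did not. The same held for CPM intervals widened for the spread of 1.52 (Ccnb1, 0.899 to 1.01; Ccnb2, 0.815 to 1.01; Ccna2, 0.865 to 0.976).

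Among cyclins outside the core cycle, Ccng1 had the lowest ratio of all 13 cyclins. Ccng1 is induced by p53 and acts on the p53 regulator Mdm2. It had 3325 counts and 109 TPM with Aβ, against 3863 counts and 124 TPM with DMSO (ratio 0.854, 0.815 to 0.894). Of all measured genes, 7.22% had a lower log2 ratio. Ccng2, a cyclin linked to cell cycle arrest, had 1582 counts with Aβ and 1528 with DMSO (1.03, 0.957 to 1.1025). Ccnh, the partner of Cdk7, had 759 and 764 counts in the Aβ and DMSO libraries, and Ccnt1, the partner of Cdk9 in transcript elongation, 642 and 652 counts, with intervals around 1 in both cases. The 13 cyclins divided into 9 below 1 (69.2%, against 50.3% of measured genes) and 4 above. Their median log2 CPM ratio was -0.034, beside -0.00071 for all measured genes. On the TPM scale it was 0.0060, beside 0.037 for all measured genes.

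The kinases covered a wide range of levels. Cdk4 was the most abundant member, with 5249 counts and 504 TPM with Aβ, against 5387 counts and 510 TPM with DMSO (ratio 0.966, 0.930 to 1.00). Per length, Cdk4 exceeded Cdk6, its close relative, 61.0-fold with Aβ and 75.8-fold with DMSO. Cdk6 was the member with the highest ratio, with 510 counts and 8.27 TPM with Aβ, against 415 counts and 6.72 TPM with DMSO (1.22, 1.07 to 1.39). Of all measured genes, 95.1% had a lower log2 ratio than Cdk6. Because Cdk6 was so much less abundant, it made up 1.03% of the summed TPM of Cdk1, Cdk2, Cdk4 and Cdk6 with Aβ and 0.822% with DMSO.

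Cdk1, the mitotic kinase whose promoter is printed above, was slightly lower, with 2280 counts and 247 TPM with Aβ, against 2410 counts and 256 TPM with DMSO (ratio 0.938, 0.886 to 0.994). That interval held 1 on the TPM scale (0.962, 0.908 to 1.02) and with the trend on transcript length removed (0.950, 0.896 to 1.01). Cdk2, the kinase of S phase, had 934 counts with Aβ and 975 with DMSO, at 44.5 and 45.2 TPM (0.950, 0.868 to 1.04). Together the kinases of the cycle summed to 8973 counts with Aβ and 9187 with DMSO (0.969, 0.941 to 0.998). Cdk4 made up 62.8% of their summed TPM with Aβ and 62.3% with DMSO, and Cdk6 went the other way. The interval of the sum covers counting error alone and was not widened for the spread of 1.52.

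Kinases with roles outside the cycle had a single member with an interval away from 1. Cdk5, best known for its activation by p35 (Cdk5r1) in neurons, had 617 counts and 68.9 TPM with Aβ, against 532 counts and 58.6 TPM with DMSO (ratio 1.15, 1.02 to 1.29). Its activator Cdk5r1 had 471 and 420 counts in the Aβ and DMSO libraries, with an interval that held 1 (1.11, 0.973 to 1.27). Cdk5r2, a further activator of Cdk5, had 69 and 68 counts (1.01, 0.71 to 1.43). Cdk7, the kinase that activates other CDKs, had 359 counts with Aβ and 353 with DMSO (1.01, 0.868 to 1.17). Cdk8, a kinase of the Mediator complex, had 869 and 911 counts, and Cdk9, of transcript elongation, 984 counts in each library, with intervals around 1 in both cases.

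**Figure D3:**
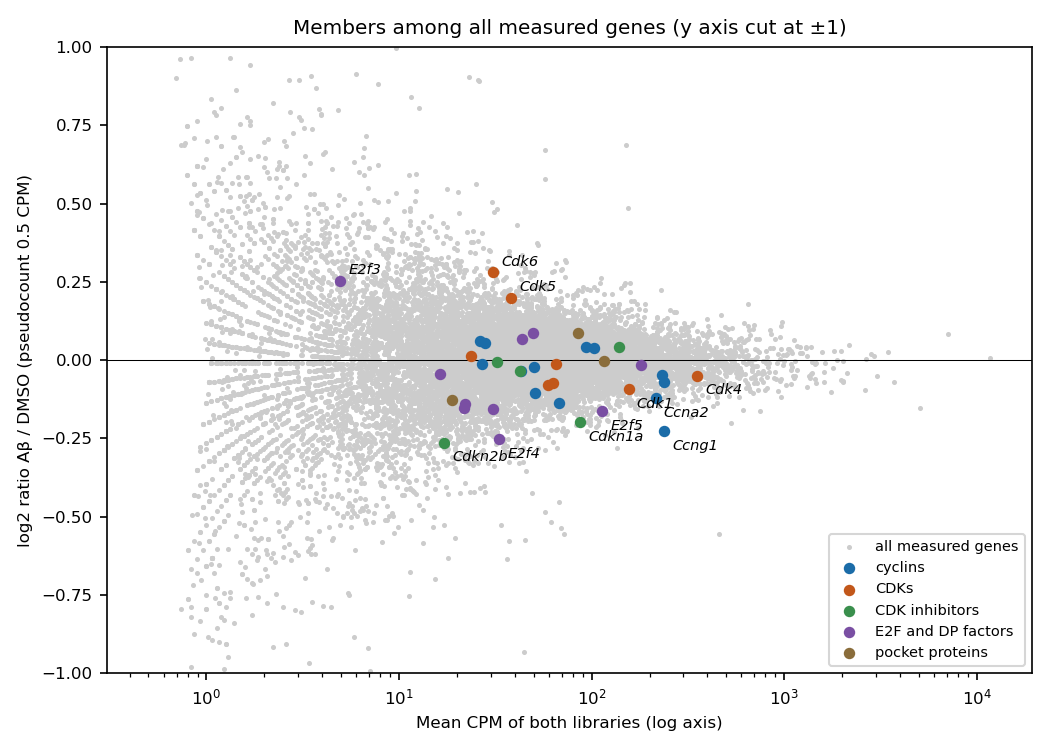
Log2 ratio of Aβ over DMSO against mean CPM on a log axis, for all measured genes (grey) and the 39 measured members (coloured by role), with the vertical axis ending at 1 in either direction. Members lie within the cloud at every level, with log2 ratios between -0.26 and 0.28, and Ccng1 sits at the lower edge of the cloud at its level.

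CDK inhibitors differed by family member. Cdkn1a, which encodes p21, a Cip/Kip inhibitor induced by p53, had 1223 counts and 70.7 TPM with Aβ, against 1392 counts and 79.0 TPM with DMSO (ratio 0.871, 0.806 to 0.942). Cdkn1b, which encodes p27, had 2127 counts and 119 TPM with Aβ, against 2050 counts and 114 TPM with DMSO (1.03, 0.968 to 1.09). Cdkn1c, which encodes p57, had 485 and 483 counts in the Aβ and DMSO libraries, at 28.3 and 27.5 TPM (0.996, 0.876 to 1.13). Of this family, p21 alone had an interval away from 1, and p27 was the most abundant in both libraries. Per length, Cdkn1b exceeded Cdkn1a 1.69-fold with Aβ and 1.45-fold with DMSO. Cip/Kip genes together summed to 3835 counts with Aβ and 3925 with DMSO (0.969, 0.927 to 1.01).

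Ink4 inhibitors, which bind Cdk4 and Cdk6, were led by Cdkn2c. Cdkn2c (p18) had 637 counts and 53.9 TPM with Aβ, against 647 counts and 53.9 TPM with DMSO (ratio 0.977, 0.874 to 1.09). Cdkn2b (p15), an inhibitor induced by TGF-beta, had 234 counts and 11.2 TPM with Aβ, against 280 counts and 13.4 TPM with DMSO (0.829, 0.694 to 0.990), the lowest ratio of the measured members. Cdkn2a, the locus of p16 and Arf and a marker of senescence, was listed with 9 counts for Aβ against 12 for DMSO, which is below the level of measurement; its interval (0.277 to 1.92) allows a wide range of ratios. Of 5 measured inhibitors, 4 lay below 1 (80%, against 50.3% of measured genes). Their median log2 CPM ratio was -0.034, beside -0.00071 for all measured genes. On the TPM scale it was 0.00027, beside 0.037 for all measured genes. With no filter on low values, which lets in Cdkn2a, the median CPM value was -0.12.

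Of 10 E2F and DP factors, 7 lay below 1 (70%, against 69.2% of all measured members and 50.3% of measured genes). Their median log2 ratio was -0.092 (-0.054 on the TPM scale), beside -0.00071 (0.037 on the TPM scale) for all measured genes. The median of E2F and DP factors was the lowest of the 5 roles among measured members, while with no filter that of the CDK inhibitors (-0.12) was lower. With a filter of 10 CPM the median of E2F and DP factors was -0.14. E2f4 and E2f5, which act mainly as repressors together with the pocket proteins in resting cells, both had intervals below 1. E2f4 had 458 counts and 25.5 TPM with Aβ, against 542 counts and 29.7 TPM with DMSO (ratio 0.838, 0.738 to 0.951). E2f5, the most abundant E2F by TPM, had 1620 counts and 72.8 TPM with Aβ, against 1798 counts and 79.4 TPM with DMSO (0.894, 0.835 to 0.956). E2f6, a repressor that works without pocket proteins, had 673 counts with Aβ and 636 with DMSO (1.05, 0.940 to 1.17).

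Activator E2Fs, which drive S phase genes, were less abundant. E2f1 had 316 counts and 12.8 TPM with Aβ, against 346 counts and 13.8 TPM with DMSO (ratio 0.906, 0.775 to 1.06). E2f2 had 244 and 250 counts in the Aβ and DMSO libraries (0.968, 0.808 to 1.16). E2f3, the measured member with the fewest counts, had 82 with Aβ and 67 with DMSO (1.21, 0.868 to 1.70). None of these differences was detectable at this depth. Per length, E2f5 exceeded E2f1 5.68-fold with Aβ and 5.77-fold with DMSO.

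Atypical E2Fs, repressors that bind DNA without a DP partner and are themselves E2F targets, had nearly equal ratios. E2f7 had 438 counts and 8.23 TPM with Aβ, against 485 counts and 8.91 TPM with DMSO (ratio 0.896, 0.785 to 1.02). E2f8 had 312 counts and 6.12 TPM with Aβ, against 345 counts and 6.64 TPM with DMSO (0.897, 0.767 to 1.05). Each interval held 1, and the summed counts of the pair, 750 with Aβ and 830 with DMSO, gave 0.896 (0.811 to 0.991). The interval of that sum covers counting error alone and was not widened for the spread of 1.52. In TPM the pair summed to 14.35 with Aβ and 15.55 with DMSO, for which no interval was computed. Tfdp1, the main DP partner of E2F factors, had 2707 and 2711 counts in the Aβ and DMSO libraries, and Tfdp2 had 776 and 725 counts, with intervals around 1 in both cases.

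Pocket proteins, the direct brakes on E2F, showed no interval away from 1. Rb1 had 1761 counts and 40.6 TPM with Aβ, against 1751 counts and 39.6 TPM with DMSO (ratio 0.998, 0.933 to 1.07). Rbl1, which encodes p107 and is an E2F target in dividing cells, had 271 counts and 9.53 TPM with Aβ, against 294 counts and 10.1 TPM with DMSO (0.914, 0.772 to 1.08). Rbl2, which encodes p130, the pocket protein of resting cells, had 1326 counts and 27.6 TPM with Aβ, against 1239 counts and 25.3 TPM with DMSO (1.06, 0.982 to 1.15). On the TPM scale the interval of Rbl2 lay above 1 (1.09, 1.01 to 1.18). On that scale 63.2% of all measured genes lay above 1, with a median log2 ratio of 0.037. By level, Rb1 came before Rbl2 and Rbl2 before Rbl1 in both libraries.

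Ratios were set beside the promoter motifs as a description. Of the 27 measured members with a promoter, the 4 with an E2F match had a median log2 ratio of -0.048 and the 23 without had -0.021. Those with a CHR match (9 genes) had -0.014, against -0.027 for the 18 without, and those with a CCAAT box (12 genes) had -0.052, against -0.0035 for the 15 without. Across all measured genes with a promoter, the medians with and without an E2F match were 0.0035 and -0.00035, those with and without a CHR match were -0.0081 and 0.0012, and those with and without a CCAAT box were -0.0024 and 0.00087.

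Downstream of the module, lists of textbook target genes had most of their members below 1. Of 30 measured replication genes known as E2F targets, 27 lay below 1 (90%, against 50.3% of measured genes), 5 were lower by the 1.1-fold rule (16.7%, against 4.54%) and 0 higher (against 4.43%), with a median log2 ratio of -0.11. Ung, a DNA repair glycosylase, stood at 0.793 (0.686 to 0.915), Mcm3, of the replicative helicase, at 0.862 (0.804 to 0.925) and the chromatin assembly factor Chaf1a at 0.900 (0.815 to 0.994). Of 25 mitotic genes known as targets of the DREAM complex and FoxM1, 22 lay below 1 (88.0%, against 50.3% of measured genes), 5 were lower (20%, against 4.54%) and 0 higher (against 4.43%), with a median of -0.057. Prc1 (0.881, 0.846 to 0.916), Cdca3 (0.882, 0.830 to 0.938) and Plk1 (0.887, 0.831 to 0.948), all of mitosis and cytokinesis, were the furthest. On the TPM scale the medians of these lists were -0.077 for replication and -0.019 for mitosis.

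Other parts of the pathway had list medians between -0.034 and 0.0019. Of 8 MuvB, B-Myb and FoxM1 genes, 7 lay below 1 (87.5%, against 50.3% of measured genes) and 1 was lower by the 1.1-fold rule (12.5%, against 4.54%). That gene was Mybl1, a Myb transcription factor (0.884, 0.805 to 0.970). The list median was -0.034, and 0.0081 on the TPM scale, where that of all genes was 0.037. Partners of CDKs, such as Cdc25 phosphatases and Wee1, had 0 of 13 genes lower or higher and a median of -0.018. On the TPM scale their median was 0.0099, beside 0.037 for all genes. Ubiquitin ligase genes of the cycle had 2 of 29 lower (6.90%, against 4.54% of measured genes) and 1 higher (3.45%, against 4.43%), both near the shares over all genes, with a median of -0.0035 (0.037 on the TPM scale, as for all genes). The lower ones were Fbxw7, the F-box protein for cyclin E (0.814, 0.706 to 0.938), and Ube2c, the ubiquitin-conjugating enzyme of mitotic exit (0.833, 0.760 to 0.912). The higher one was Btrc, an F-box protein (1.101, 1.004 to 1.21). Btrc only just passed both limits of the rule, and its levels were closer in TPM, at 24.8 with Aβ and 23.7 with DMSO.

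Of 20 measured cyclins and CDKs outside the module, 4 were lower (20%, against 4.54% of measured genes) and 2 higher (10%, against 4.43%), with a median of 0.0019. Ccnj stood at 0.295 (0.238 to 0.363) with fractional counts. A further entry of that gene differed the other way, and the sum of both entries came to 437 counts with Aβ, against 447 with DMSO (0.970, 0.848 to 1.11). The place of Ccnj among the 4 lower genes thus rests on the first entry alone. The other lower genes were Ccnk (0.849, 0.762 to 0.946), Cdk10 (0.879, 0.778 to 0.992) and Ccnl1 (0.880, 0.808 to 0.959), the last with fractional counts. Cdk12, a kinase of transcript elongation, stood at 1.27 (1.13 to 1.41) and Ccna1, an A cyclin known from the germ line, at 1.23 (1.00 to 1.50). Upstream regulators of D cyclins and CDK inhibitors had 2 of 28 lower (7.14%, against 4.54% of measured genes) and 1 higher (3.57%, against 4.43%), both near the shares over all genes, with a median of -0.0013 (0.033 on the TPM scale). Tcf7l2, a Wnt effector, was at 0.858 (0.769 to 0.958) and the p53 regulator Mdm2, itself induced by p53, at 0.883 (0.808 to 0.965). Foxo3, which induces p27 and Ccng2 in other cells, was at 1.23 (1.01 to 1.50).

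**Figure D4:**
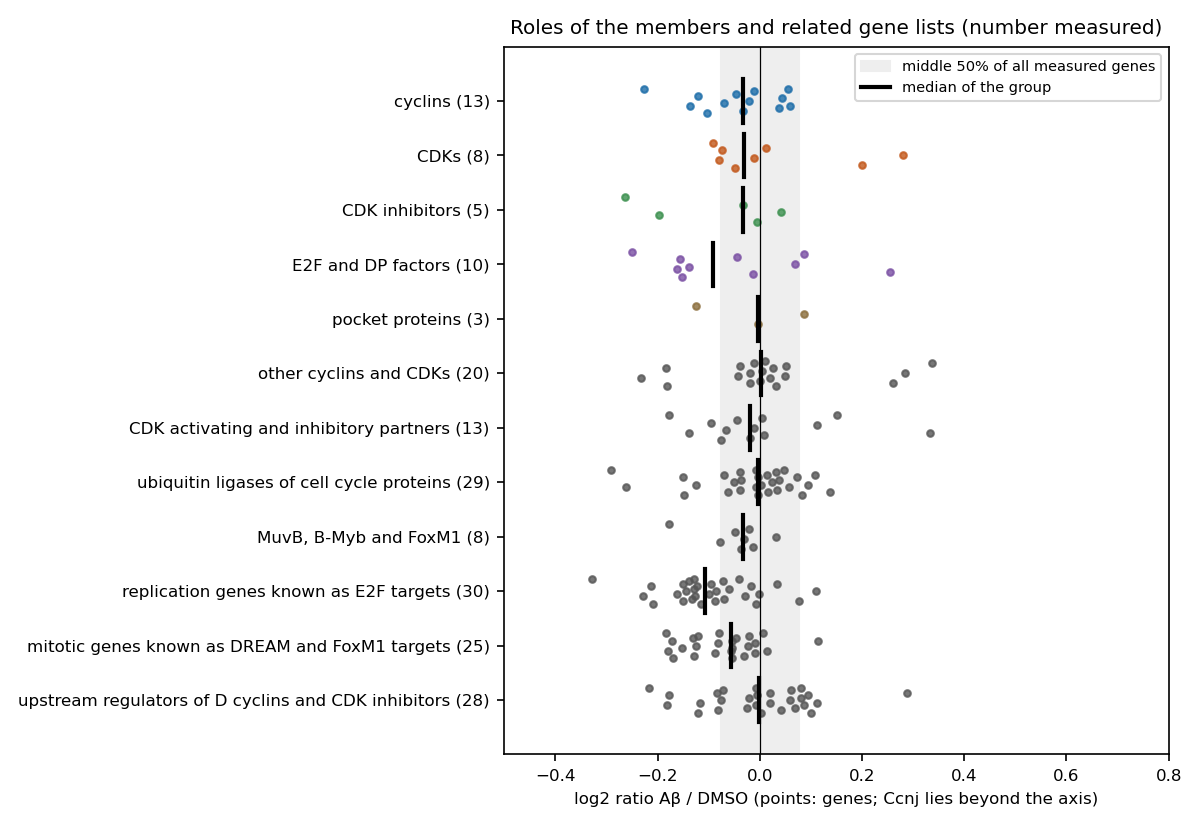
Log2 ratio of Aβ over DMSO for each measured gene (points) in the 5 roles of the module and in 7 related lists, with the median of each group as a black bar and the middle 50% of all measured genes shaded. Of the groups drawn, the medians of E2F and DP factors (-0.092) and of replication genes (-0.11) lie furthest below 0, and Ccnj lies beyond the axis.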

How the data were processed

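One table of the whole series was used, with 1 library for Aβ and 1 for DMSO. Per the labels' protocols, mRNA libraries were made with a BGI kit. Bowtie2 and Rnor_6.0 (a rat build) appear in the submitters' processing notes. The quantifier, the annotation release and the use of strand are not stated there or in the labels. The authors' deposited estimated counts need not be whole (13.4% of listed genes had a fraction in at least 1 library) and were rounded for intervals and library factors. The authors' deposited TPM values, per the file headers, are per transcript length. CPM were scaled with TMM factors (edgeR 4.0.16, R 4.3.3). Log2 ratios added 0.5 CPM; ratios had no pseudocount and exact 95% binomial (Clopper-Pearson) intervals for the split of a gene's summed counts between the libraries. These cover counting error only, since reads are not independent molecules. With 1 library per group no test was possible. The interval was tested on simulated data with counting error alone, which cannot show how it holds for the wider spread between these libraries.

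The members, lists and rules were chosen with earlier results of these data known. All members are accounted for, with full values for those whose interval left out 1 and for a fixed panel. Of each related list, up to 3 genes whose interval left out 1 are named, those furthest from 0. E2f3, Rb1 and Rbl1 sequences, and Cdk5r1, Cdk5r2, Ccnk, Cdk10 and Ccnl1, were chosen after their values were seen. Full promoters were to be printed for those of Ccnb1, Ccnb2, Ccna2, Cdk1, E2f1 and Ccne1 that held an E2F or CHR match, which gave Ccnb2 and Cdk1; Ccna2 and E2f1 were not searched.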

Additional observations from a re-analysis of the deposited data

How the results depend on the processing

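Results were recomputed with DESeq2 size factors or total counts for scaling, pseudocounts of 0.1 and 5 CPM, a filter of 10 CPM or none, TPM, whole counts alone, and removal of the trend on transcript length. Under all 9 settings, the number of members called by the 2-fold rule stayed at 0, 2 members were higher beyond 1.1-fold, and the lower ones numbered between 4 (TPM) and 6. The median log2 ratio of A, B and F cyclins moved to -0.014 with whole counts alone, since Ccna2 and Ccnb2 leave. That of the CDK inhibitors moved to -0.12 with no filter, since Cdkn2a enters, and that of E2F and DP factors to -0.14 with a filter of 10 CPM, since E2f3 leaves. The interval lay below 1 for 9 members in the main setting, 8 with DESeq2 size factors, 7 with whole counts alone, 7 with the length trend removed and 6 with TPM. It lay above 1 for 2 members in the main setting and 3 with TPM. With widened intervals, chosen after the data were seen, 5 members lay below 1, 1 above, and 1 was higher beyond 1.1-fold. The interval of Ccnb1 also held 1 with DESeq2 size factors (0.956) and that of Ccnb2 with the length trend removed (0.917). When widened, those of Ccnb1, Ccnb2, Cdk1, Cdk5 and Cdkn2b held 1. The median of the D cyclins, -0.012, turned to 0.022 with TPM and 0.0031 with the length trend removed. That of the pocket proteins, -0.0035, turned to 0.036 with TPM and 0.0029 with DESeq2 size factors. Over all measured genes the median was 0.037 with TPM, -0.00069 with the length trend removed and 0.0057 with DESeq2 size factors. No paired analysis was possible because each group has 1 library. Counts limit the members with low levels most: for E2f3, with 82 and 67 counts, the interval ran between 0.868 and 1.70.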

Other observations

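Counts divided by TPM give a gene's effective transcript length up to a constant of the library. Relative to the median gene, this length agreed within 1% between the libraries for 34 of the 38 members with at least 5 TPM in both (89.5%), and for 76.8% of 10599 such genes. The other 4 were Tfdp2 (length 1.06 times as great with Aβ as with DMSO), Cdkn2b (1.02), Cdk6 (1.02) and Cdkn1b (1.01), named after their values were seen. For Tfdp2 the CPM ratio was 1.06 and the TPM ratio 1.03.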
